A study of Mus musculus with 60 samples.

Results

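The 10 astrocyte marker genes Gfap, Aldh1l1, Aqp4, Slc1a2, Slc1a3, Gja1, Aldoc, Glul, S100b and Fgfr3 were examined in 12 peak lists from chromatin of hippocampal nuclei, to ask which histone marks these glial genes carried in nuclei that were tagged as neuronal. Their peaks were taken by gene symbol, which gave 189 of 256375 peaks, 106 for H4K8ac and 83 for H3K27me3. All 10 genes had a peak in at least 1 list, of 16994 gene symbols in the lists as a whole. The mice carried Emx1-NuTRAP, in which Emx1-Cre switches on a tag of nuclei and ribosomes in the excitatory lineage of the forebrain, and the labels name the cell type as neuron. The Emx1 lineage starts in dividing precursors of the cortex and hippocampus, which can also give rise to astrocytes, so tagging is not in itself a mark of neurons. Exercised male mice had access to a wheel between postnatal days 21 and 41, and sedentary males were housed without a wheel over the same days. Nuclei came from both hippocampi by simultaneous isolation of nuclei and ribosomes (SIT, 4 libraries for each antibody and condition) or from the left or the right hippocampus by separate isolation (3 libraries each). CUT&RUN-seq, which releases and sequences the DNA bound by an antibody in intact nuclei, was run for H4K8ac, H3K27me3 and IgG in 60 samples.

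Each list pooled libraries of its group, so a list was a single value with no replicate and the libraries behind it could not be set against each other. Some exercised H4K8ac libraries, of SIT and of the separate isolations, were left out by the authors, though whether before pooling is not stated. These lists together may thus rest on fewer libraries than the labels have. For its SIT peaks of both marks the study also names fewer animals than labelled libraries, and fewer sedentary than exercised, so the other SIT lists may rest on fewer as well. How many libraries of the separate isolations stand behind the exercised left and right H4K8ac lists is not stated for each side. H4K8ac lists held 12168 to 38136 peaks and H3K27me3 lists 9899 to 25693. The exercised list was longer than the sedentary list in the SIT arm for both marks (ratios of 1.26 for H4K8ac and 2.5 for H3K27me3) and shorter in the right separate arm (0.545 and 0.454). In the left separate arm the ratio was 0.334 for H4K8ac and 1.26 for H3K27me3. The lists hold no counts, so the depth behind each is unknown from the files, and a gene without a peak is a gene without a call.

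H4K8ac, the acetylation of lysine 8 of histone H4, is found at active starts and enhancers. H3K27me3 is laid down by Polycomb repressive complex 2, and broad H3K27me3 over a start is typical of genes held silent in a lineage. Astrocyte genes serve the upkeep of synapses: they take up glutamate (Slc1a2, Slc1a3), turn it into glutamine (Glul), move water (Aqp4), couple cells through gap junctions (Gja1), and supply the cytoskeleton (Gfap), folate metabolism (Aldh1l1), glycolysis (Aldoc), calcium binding (S100b) and growth factor signalling (Fgfr3). Slc1a2 transcripts are also known from hippocampal pyramidal neurons, and Glul is used by many cell types.

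The 10 genes fell into separate patterns. Fgfr3, Aqp4 and Aldh1l1 had H3K27me3 over the start of the principal transcript in 6 of 6 lists and Gja1 in 5 of 6, and no H4K8ac peak lay over any of these 4 starts. Most genes share this absence: 16029 of 21827 coding genes, and 7 of the 10 members, had no H4K8ac over the start in any list. Slc1a2 had no H3K27me3 peak in any list and H4K8ac peaks within the gene in all 6. Slc1a3 had H4K8ac within the gene in 3 lists, while 46 of its 47 H3K27me3 peaks lay outside the gene on either side. Gfap, Glul and S100b had no H3K27me3 peak at all, and Aldoc had 1.

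Promoter sequences are shown, among the 9 members in the RefSeq promoter table (all but Aqp4), for the 3 genes whose start lay inside a peak most often (Fgfr3, Aldh1l1 and Gja1) and for the 3 whose principal start lay in no peak of either mark (Aldoc, Gfap and S100b), since the results turn on this difference. Each runs from 250 bases before a RefSeq start to 50 after it (build GRCm38.p6), 5′ to 3′ along the gene, with CG dinucleotides in capitals. They are Fgfr3 at chr5:33721474-33721773 (+), Aldh1l1 at chr6:90550543-90550842 (+), Gja1 at chr10:56377050-56377349 (+), Aldoc at chr11:78322823-78323122 (+), Gfap at chr11:102897151-102897450 (-) and S100b at chr10:76253586-76253885 (+).
Fgfr3: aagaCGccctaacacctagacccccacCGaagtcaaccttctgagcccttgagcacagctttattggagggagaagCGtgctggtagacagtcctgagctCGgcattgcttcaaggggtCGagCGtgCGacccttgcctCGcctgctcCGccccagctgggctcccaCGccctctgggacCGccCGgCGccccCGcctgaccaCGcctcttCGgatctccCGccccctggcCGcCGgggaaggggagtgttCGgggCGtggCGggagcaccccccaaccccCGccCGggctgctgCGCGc
Aldh1l1: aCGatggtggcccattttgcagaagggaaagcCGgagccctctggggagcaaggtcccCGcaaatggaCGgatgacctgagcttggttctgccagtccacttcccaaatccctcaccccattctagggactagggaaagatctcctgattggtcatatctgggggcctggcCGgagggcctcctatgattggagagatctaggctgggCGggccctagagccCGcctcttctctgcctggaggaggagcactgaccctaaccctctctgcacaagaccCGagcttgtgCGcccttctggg
Gja1: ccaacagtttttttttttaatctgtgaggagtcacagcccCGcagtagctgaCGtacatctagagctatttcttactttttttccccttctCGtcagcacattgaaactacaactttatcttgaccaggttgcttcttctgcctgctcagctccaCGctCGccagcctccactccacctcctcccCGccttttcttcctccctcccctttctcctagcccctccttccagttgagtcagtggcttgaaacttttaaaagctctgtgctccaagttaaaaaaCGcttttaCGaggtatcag
Aldoc: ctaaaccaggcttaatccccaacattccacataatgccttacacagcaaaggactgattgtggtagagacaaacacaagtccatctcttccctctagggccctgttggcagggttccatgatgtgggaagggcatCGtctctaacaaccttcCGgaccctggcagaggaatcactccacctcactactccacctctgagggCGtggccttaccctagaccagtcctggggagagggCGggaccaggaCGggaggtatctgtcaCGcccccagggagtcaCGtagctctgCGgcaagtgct
Gfap: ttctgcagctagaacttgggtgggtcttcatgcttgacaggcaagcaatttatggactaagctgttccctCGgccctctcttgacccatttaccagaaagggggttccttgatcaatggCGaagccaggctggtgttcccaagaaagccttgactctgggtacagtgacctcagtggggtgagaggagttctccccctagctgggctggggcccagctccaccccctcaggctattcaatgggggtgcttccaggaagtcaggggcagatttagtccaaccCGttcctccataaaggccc
S100b: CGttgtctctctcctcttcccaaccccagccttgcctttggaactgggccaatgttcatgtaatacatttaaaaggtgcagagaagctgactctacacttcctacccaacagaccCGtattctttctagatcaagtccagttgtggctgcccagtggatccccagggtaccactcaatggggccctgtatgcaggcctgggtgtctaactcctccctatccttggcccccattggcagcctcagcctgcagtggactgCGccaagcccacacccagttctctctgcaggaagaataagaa

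The Fgfr3 promoter held 26 CG dinucleotides in 300 bases, a number that 16.9% of 32851 RefSeq promoters reached (median 7, quartiles 3 and 20). Aldh1l1 held 9 and Gja1 8, close to the middle of that range. Among the promoters with no peak over the start, Aldoc held 8 and Gfap and S100b 3 each. The number of CG dinucleotides thus set Fgfr3 apart, while Gja1 with H3K27me3 in 5 lists and Aldoc with none over its start had the same count. The letters TTCNNNGAA, the form of site that STAT factors bind, occurred once in the Gfap promoter and in none of the other 5 shown (8.30% of all promoters, either strand). TTGGC, the half-site of nuclear factor I, occurred in S100b at 4 places and in Aldoc at 1 (46.7% of all promoters hold it), and TATAAA in none of the 6 (13.6%). These matches are letters only and say nothing of binding.

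**Figure D1:**
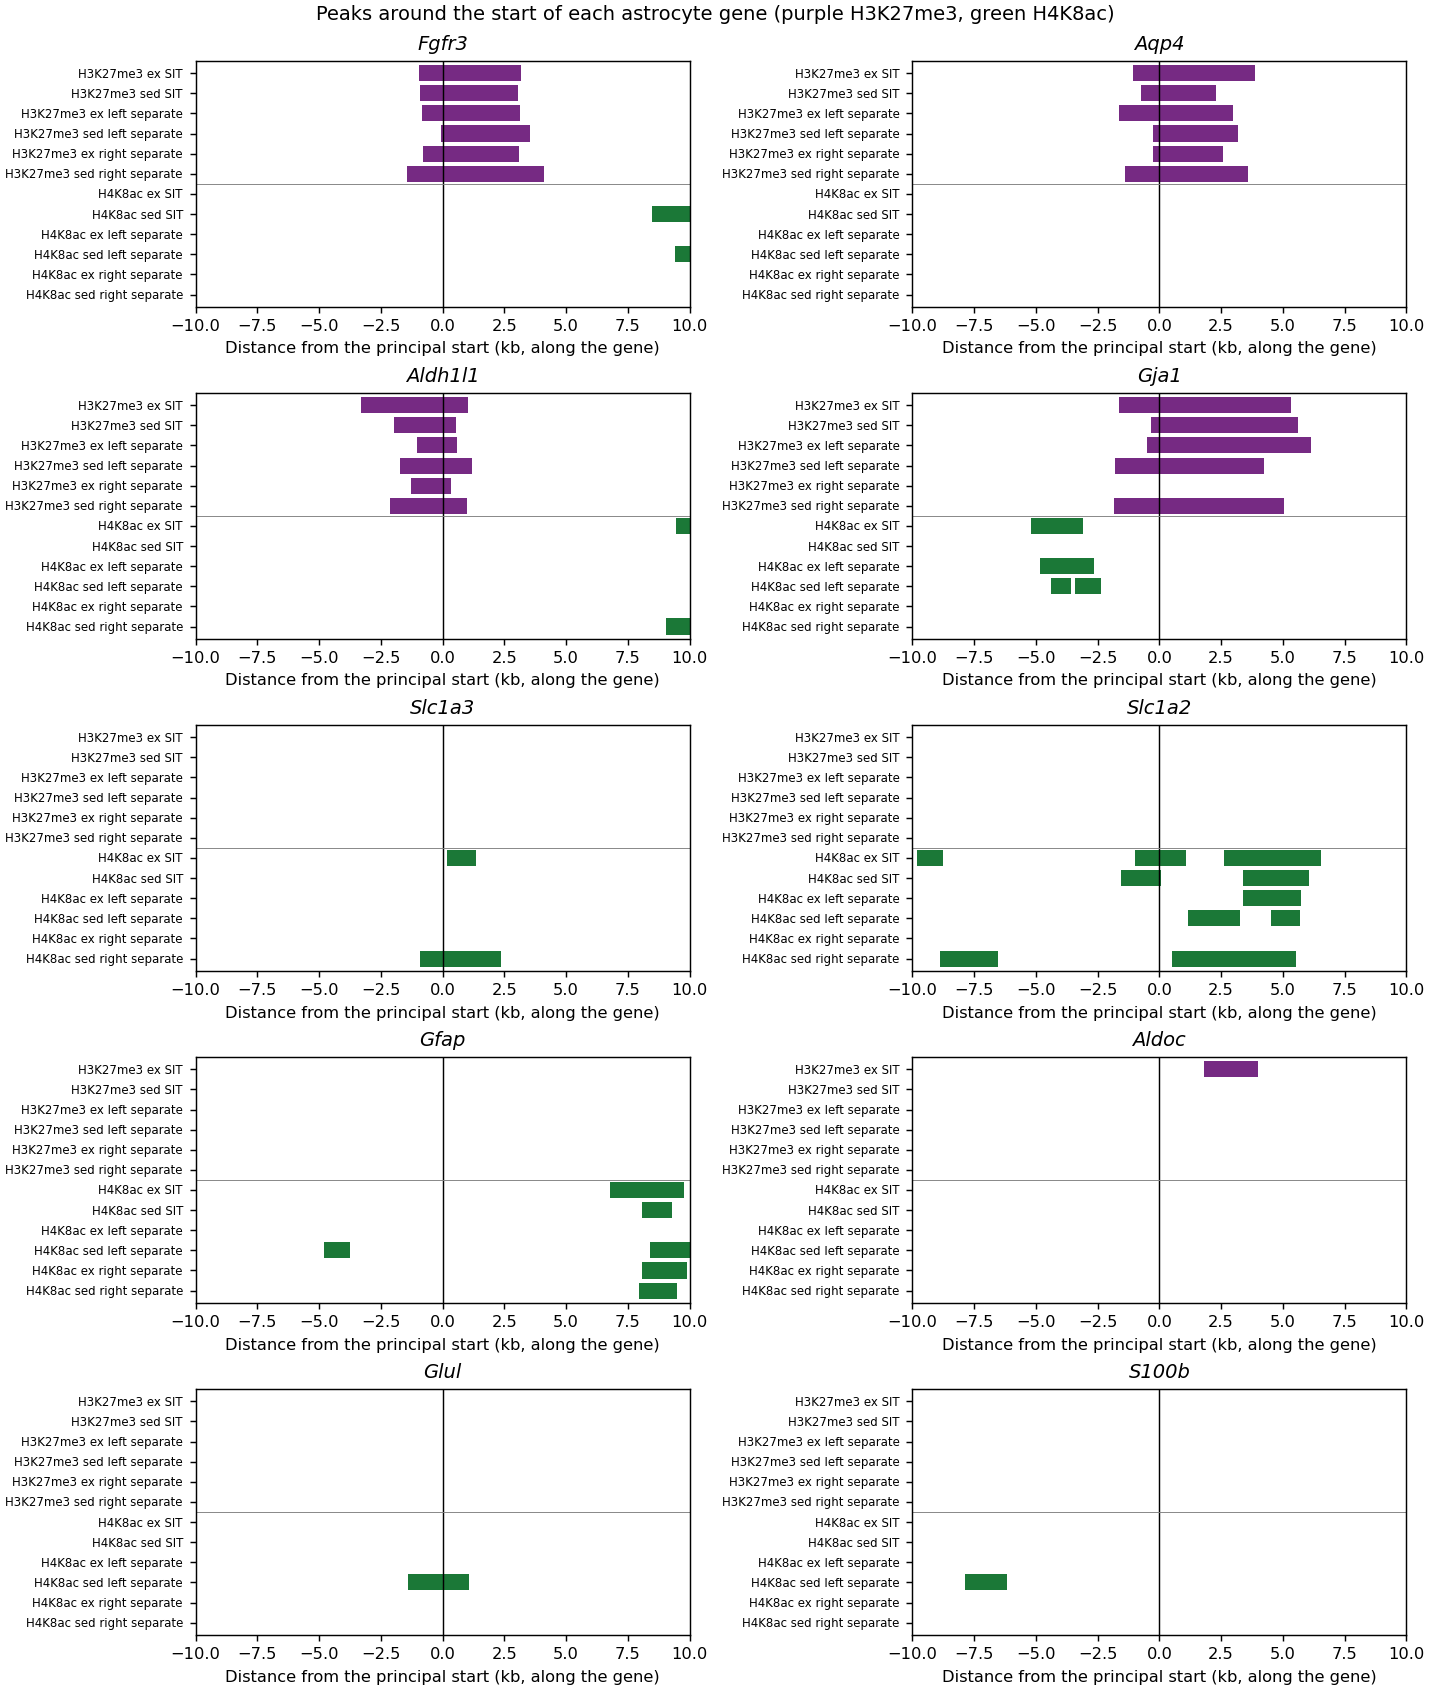
Peaks within 10 kb of the principal start of each gene, with the distance from the start along the gene in kb on the horizontal axis and the 12 lists in rows (ex, exercised; sed, sedentary; purple bars, H3K27me3 peaks; green bars, H4K8ac peaks; black line, start). H3K27me3 covers the starts of Fgfr3, Aqp4 and Aldh1l1 in 6 lists and of Gja1 in 5, and none of the green bars crosses these 4 starts. Of 21827 coding genes, 16029 have no H4K8ac over the start in any list.

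Fgfr3 encodes a fibroblast growth factor receptor that marks astrocytes and their precursors, and lies at chr5:33721674-33737068 on the plus strand. Its H3K27me3 start peak was 4118 bases wide in exercised SIT, 3944 in sedentary SIT, 3953 in exercised left, 3622 in sedentary left, 3893 in exercised right and 5554 in sedentary right. The sedentary right list held the widest peak and the other 5 lay within 3622 to 4118 bases. A stretch of 3127 bases, chr5:33721640-33724766, was inside the peak in every list, over the start and the first part of the gene. All 6 lists also had H3K27me3 peaks before Fgfr3, between -29306 and -19218 bases relative to the start, where no coding gene lies. These peaks did not share a base across all 6 lists, and at most 5 lists covered the same base. H4K8ac was seen inside the gene in only the sedentary SIT and sedentary left lists, from 8480 to 10643 bases after the start, which the annotation counted as a promoter because a short transcript starts there.

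Aldh1l1, an enzyme of folate metabolism whose promoter is widely used to mark astrocytes, lies at chr6:90486427-90600203 on the plus strand. Its gene model begins far before the principal start at 90550789, and 6 of its 10 H3K27me3 peaks, 1 in each list, lay over that principal start. These were 4322 bases wide in exercised SIT, 2498 in sedentary SIT, 1588 in exercised left, 2918 in sedentary left, 1595 in exercised right and 3132 in sedentary right. Exercised lists held both the widest and the narrowest, so the conditions overlapped. The bases common to all 6 lists were chr6:90549765-90551121, 1357 bases. The other 4 H3K27me3 peaks were intronic, between -42606 and -23614 bases relative to the principal start, in the 3 exercised lists and in sedentary right. H4K8ac peaks were found further inside the gene in exercised SIT and sedentary right (9046 to 11166 bases after the start) and in sedentary left (14927 to 16085).

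Gja1 encodes connexin 43, the main gap junction protein of astrocytes, and lies at chr10:56377330-56402513 on the plus strand. Its H3K27me3 peak was the broadest at a member's start, at 6972 bases in exercised SIT, 5930 in sedentary SIT, 6632 in exercised left, 5999 in sedentary left and 6889 in sedentary right. The exercised right list, the shortest of the mark with 9899 peaks, had no Gja1 peak. The other 5 lists had 4551 bases in common, chr10:56377001-56381551. H4K8ac lay just before this domain, from -5197 to -2371 bases relative to the start, in exercised SIT, exercised left and sedentary left. In the sedentary left list, both marks came within 593 bases of each other without sharing a base.

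Aqp4, the water channel of astrocyte endfeet, lies at chr18:15389496-15410982 on the minus strand. H3K27me3 over its principal start was 4946 bases wide in exercised SIT, 3051 in sedentary SIT, 4644 in exercised left, 3428 in sedentary left, 2820 in exercised right and 4981 in sedentary right. The exercised peak was the wider in the SIT and left arms and the narrower in the right arm. The lists had 2527 bases in common, chr18:15401470-15403996, which include the start. H4K8ac had 38 peaks assigned to Aqp4, but 30 of them lay in introns of the neighbouring gene Chst9, a carbohydrate sulfotransferase, and 3 in the Aqp4 gene. These 3 lay in the 3′ UTR and were found in the exercised SIT (1765 bases), exercised left (1341) and exercised right (1861) lists, with no H4K8ac in the gene in any sedentary list. Aqp4 was the only member whose window had more covered bases in exercised than in sedentary mice in all 3 arms, for either mark. The mean difference was 1660 ± 277 bases (SD over 3 arms) and the exact two-sided sign-flip permutation test gave p = 0.25, the smallest that 3 arms allow, so 0.05 could not be reached. Of 11372 coding genes with any H4K8ac in their window, 1.31% were higher in exercised mice in all 3 arms and 6.05% lower. Among the 10 members these were 1 and 0, and Aldoc and S100b had no H4K8ac in their windows in any list. Scaled to the bases of the whole list, Aqp4 was again the only member higher in all 3 arms and 0 were lower, beside 6.02 and 7.01% of genes.

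Slc1a2 encodes the glutamate transporter GLT-1 and lies at chr2:102658659-102790784 on the plus strand. The gene and the 3000 bases before it, its window, had 28974 bases inside H4K8ac peaks in exercised SIT, 10716 in sedentary SIT, 9833 in exercised left, 25422 in sedentary left, 5824 in exercised right and 19480 in sedentary right. The exercised list had more in the SIT arm and less in both separate arms, and the conditions overlapped. These covered bases amounted to 4.31 to 21.4% of the window. Merged over the lists, the window held 14 H4K8ac regions, of which 5 were found in 4 or more lists and none in all 6. The principal start lay inside a peak in the SIT lists alone (exercised and sedentary), although a peak in the promoter class was assigned to Slc1a2 in all 6 lists, because the annotation also counts internal starts. The region from -1566 to 6534 bases relative to the start had peaks in 5 lists, which shared 990 bases, and that from 23964 to 31346 bases also had peaks in 5, of which at most 4 covered the same base. A further region at chr2:102742199-102745071 inside the gene was assigned to Gm13872 in 3 lists.

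Slc1a3 encodes the glutamate transporter GLAST, which is shared by astrocytes and radial glia, and lies at chr15:8634124-8710764 on the minus strand. H4K8ac covered 3348 bases of its window in exercised SIT, 2793 in sedentary left and 7228 in sedentary right, and 0 in sedentary SIT, exercised left and exercised right. The start itself was covered in sedentary right alone. H3K27me3 peaks assigned to Slc1a3 numbered 10 in exercised SIT, 3 in sedentary SIT, 10 in exercised left, 8 in sedentary left, 2 in exercised right and 14 in sedentary right. Of these 47 peaks 46 were distal intergenic, and the remaining one was an intronic peak of 2469 bases in sedentary right. The domains at 124170 to 140098 and at 145857 to 153512 bases after the start, beyond the 3′ end, had peaks in all 6 lists, with 1562 and 1263 bases common to the 6, and overlapped no coding gene. A domain before the gene, from -72052 to -68572 bases, was found in 5.

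**Figure D2:**
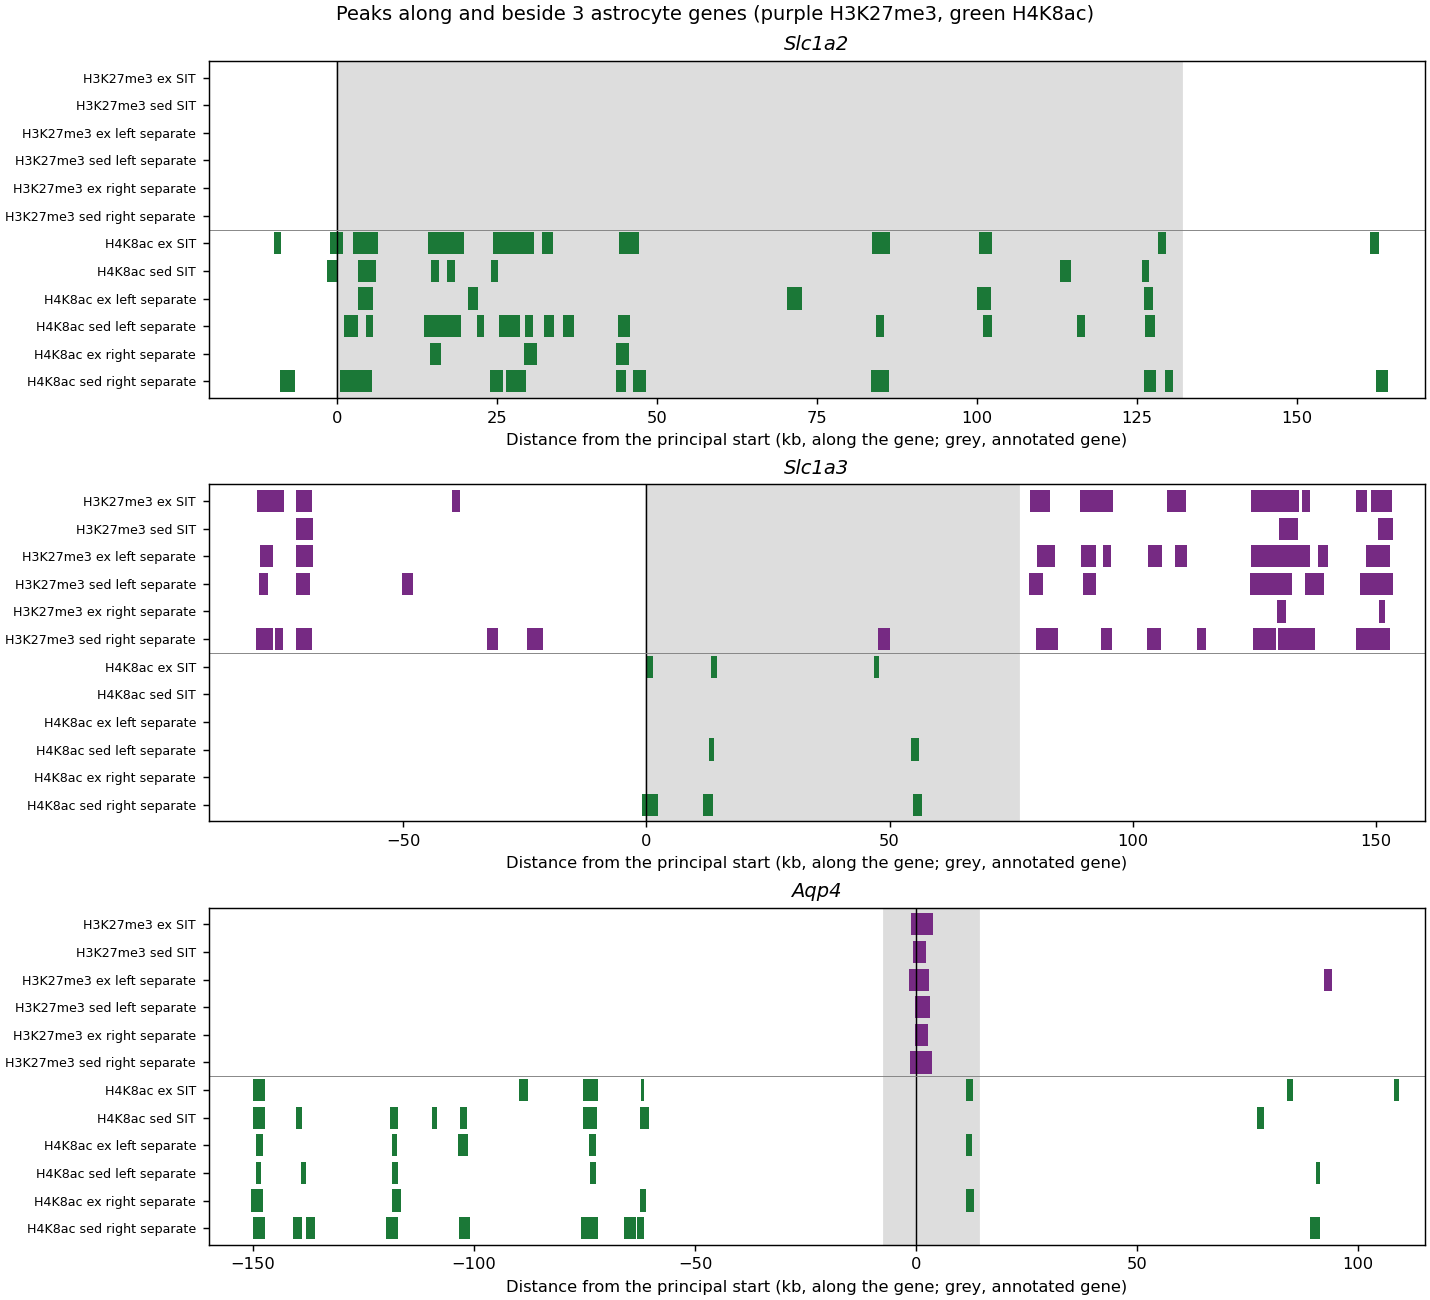
Peaks along and beside Slc1a2, Slc1a3 and Aqp4, with the distance from the principal start along the gene in kb on the horizontal axis and the 12 lists in rows (grey, annotated gene; purple, H3K27me3; green, H4K8ac). Slc1a2 holds H4K8ac alone, the H3K27me3 of Slc1a3 lies outside the gene but for 1 peak, and the H4K8ac peak in the 3′ part of Aqp4 stands in the 3 exercised rows.

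Gfap, the intermediate filament protein of astrocytes, lies at chr11:102887336-102900912 on the minus strand. A single H4K8ac peak was assigned to it, of 1063 bases in sedentary left, at a 5′ end of the gene model that lies before the principal start. Other H4K8ac peaks overlapped its 3′ part in 5 of 6 lists, between 6763 and 10079 bases after the principal start and in part beyond the end of the gene, and the annotation gave them to the neighbouring gene Fam187a. With these, the Gfap window had 3019 bases inside H4K8ac peaks in exercised SIT, 1205 in sedentary SIT, 0 in exercised left, 2472 in sedentary left, 1722 in exercised right and 1525 in sedentary right. The exercised list had more in the SIT and right arms and less in the left arm. Counting by symbol thus listed Gfap in 1 H4K8ac list and counting by position in 5.

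Glul, which encodes glutamine synthetase, lies at chr1:153899944-153909723 on the plus strand. Its start lay inside an H4K8ac peak of 2477 bases in the sedentary left list, which the annotation gave to Mir8114, and the peak assigned to Glul itself lay 35501 to 36810 bases after the start in exercised SIT. S100b, a calcium-binding protein at chr10:76253853-76261159 on the plus strand, had a single H4K8ac peak of 1664 bases before the gene, in sedentary left, and none in its window. Aldoc, an aldolase of glycolysis at chr11:78322968-78327781 on the plus strand, had no H4K8ac peak and a single H3K27me3 peak of 2182 bases inside the gene, in exercised SIT. These 3 genes thus had a peak of either mark in their windows in at most 1 of the 12 lists.

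**Figure D3:**
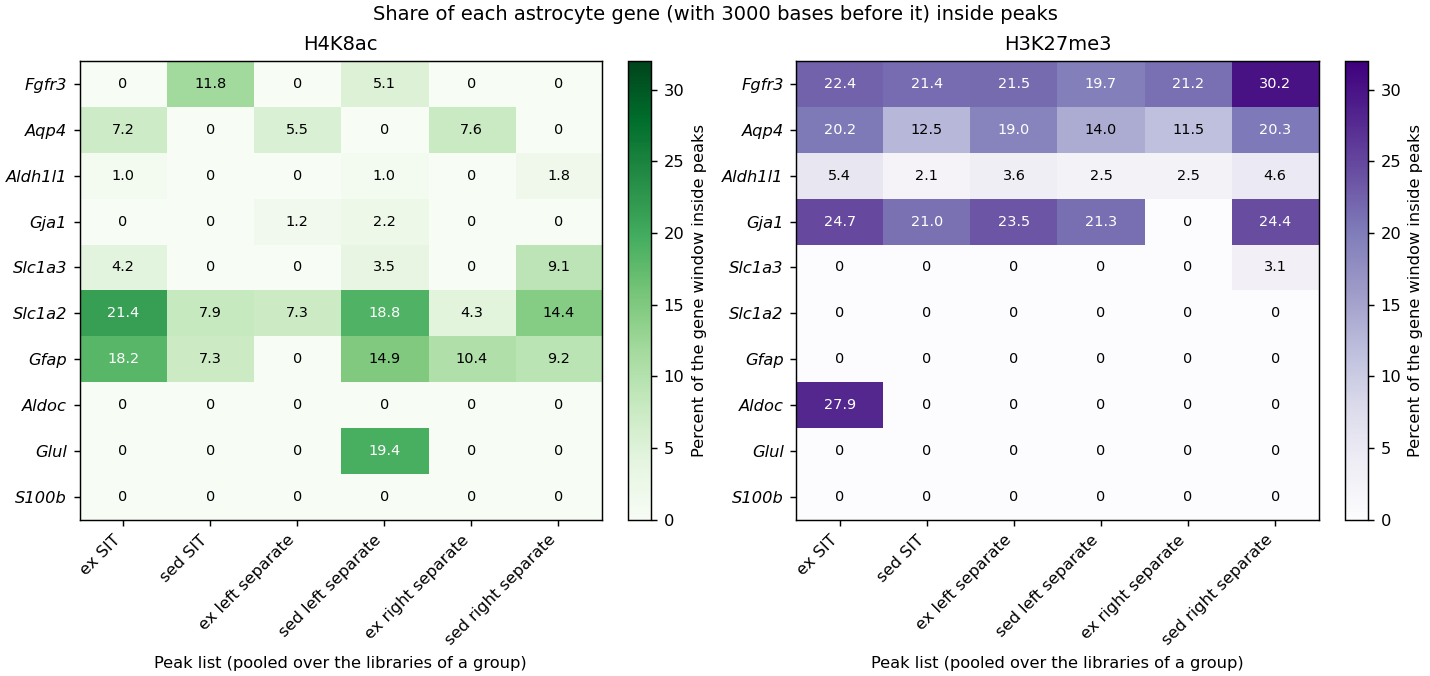
Percent of each gene window (the gene with 3000 bases before its 5′ end) inside peaks, with genes in rows and the 6 pooled lists of each mark in columns (ex, exercised; sed, sedentary; green, H4K8ac; purple, H3K27me3). H4K8ac reaches 21.4% in Slc1a2, H3K27me3 reaches 30.2% in Fgfr3, and S100b is at 0 throughout.

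Peaks of both marks were present in the same window in 11 of 60 combinations of member, condition and arm, and shared a base in 0 of them. These combinations came from Aldh1l1, Aqp4, Fgfr3, Gja1 and Slc1a3. The same counts were not made for all genes, so they are not read as a trait of the members. In bulk nuclei, marks carried by different cells and marks carried by the same cell cannot be told apart.

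Counted over lists, H3K27me3 promoter peaks were present in 24 of 60 member and list pairs (40.0%) and H4K8ac promoter peaks in 14 (23.3%). For H3K27me3 this was 3 to 5 of 10 members in each list, beside 7.70 to 14.2% of the 21827 coding genes. The lowest count, 3 of 10 in exercised right, had an exact binomial 95% interval of 6.67 to 65.2% against 7.70% of all genes in that list, and the highest, 5 of 10 in exercised SIT, 18.7 to 81.3% against 14.2%. The other 4 lists had 4 of 10 members each, 12.2 to 73.8%, against 8.98% of all genes in sedentary SIT, 11.3% in exercised left, 10.2% in sedentary left and 13.3% in sedentary right. The interval thus held the share of all genes in the 2 right separate lists and lay above it in the other 4. For H4K8ac it was 1 to 5 of 10 members, beside 10.3 to 28.1% of all genes, and the interval held the share of all genes in every list. With the principal start required inside the peak, H4K8ac fell to 4 of 60 pairs (6.67%), below the 10.2% of all coding genes, where promoter peaks had given 23.3 against 19.1%. H3K27me3 stayed at 23 of 60 pairs (38.3%), against 8.05%. The members are a chosen set, picked with earlier results of these data known, and these intervals cover counting alone. The lists also repeat the same genes (Fgfr3, Aqp4 and Aldh1l1 in all 6), so they are not separate counts, and enrichment was not tested. H3K27me3 over the principal start in all 6 lists was found at 3 of 10 members (30.0%) and at 4.29% of coding genes.

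**Figure D4:**
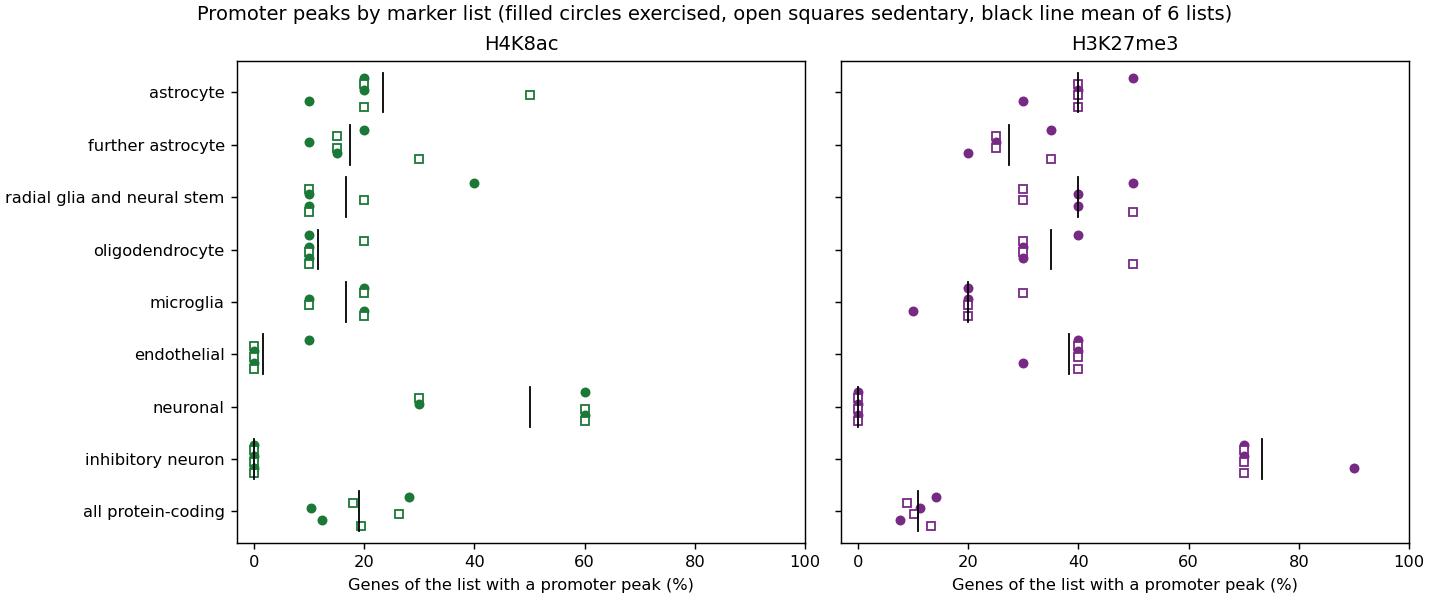
Percent of the genes of each marker list with a promoter peak, for H4K8ac (left) and H3K27me3 (right), with 1 point per pooled list (filled circles, exercised; open squares, sedentary; black line, mean of the 6 lists). For H3K27me3 the astrocyte genes average 40.0%, the neuronal genes 0 and all coding genes 10.9%.

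The neuronal genes had no H3K27me3 promoter peak in 60 gene and list pairs, and H4K8ac promoter peaks in 30 of them, with Eno2 (neuronal enolase) and Snap25 (a synaptic vesicle fusion protein) in 6 lists and Syt4 (a synaptotagmin) in 5. A further 20 astrocyte genes had H3K27me3 promoter peaks in 27.5% of pairs and H4K8ac in 17.5%. Cldn10, Dio2 and Gjb6 had the H3K27me3 peak in 6 lists, and Hepacam and Slc4a4 had the H4K8ac peak in 4. The radial glia and neural stem genes had H3K27me3 in 40.0% of pairs, led by Nes and Prom1 in 6 lists, and H4K8ac in 16.7%, led by Fabp7 in 6. Oligodendrocyte genes were at 35.0% for H3K27me3 (Olig1 and Olig2 in 6 lists) and 11.7% for H4K8ac (Mbp in 6), microglia genes at 12 of 60 pairs (Tmem119 in 6) and 16.7% (P2ry12 in 6), and endothelial genes at 38.3% (Abcb1a, Cldn5 and Flt1 in 6) and 1.67%. Inhibitory neuron genes were at 73.3% for H3K27me3 (Gad2, Lhx6 and Npy in 6 lists) and 0 for H4K8ac. For H3K27me3 the neuronal genes were the lowest and the inhibitory neuron genes the highest, so every other marker list lay between them. The astrocyte genes were near the radial glia, endothelial and oligodendrocyte genes, and the further astrocyte genes were lower at 27.5%. No test was made of this description. For all coding genes the shares were 10.9 and 19.1%. A gene that is silent in tagged nuclei and a gene marked in a part of them cannot be told apart in such counts, and the peak lists do not measure the share of astrocytes among the nuclei.

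Exercise was compared within each arm by the genes listed in 1 of the 2 lists alone. For H4K8ac in the SIT arm, Aldh1l1, Gja1, Glul and Slc1a3 were gained (listed in exercised alone) and 0 members were lost (listed in sedentary alone), where 27.5% of the genes in either list were gained and 10.1% lost. In the left separate arm 0 members were gained, against 3.58% of genes, and Aldh1l1, Fgfr3, Gfap, S100b and Slc1a3 were lost, against 51.9%. In the right hippocampus 0 members were gained, against 9.14%, and Aldh1l1 and Slc1a3 were lost, against 36.7%. Aldh1l1 and Slc1a3 thus changed in all 3 arms and in opposite directions, each time toward the longer list of the arm. Members in neither list, which the shares of genes leave out, numbered 3 in SIT, 2 on the left and 6 on the right. Slc1a2 and Aqp4 were shared in all 3 arms by symbol. By position, with a peak overlapping the window, Aqp4 was instead gained in all 3 arms, since its sedentary H4K8ac peaks all lay outside its window, and it was then the 1 member gained on the left and on the right, where the exercised list was the shorter. By position the gains over the 3 arms numbered 5 and the losses 8, in place of 4 and 7, where 17.2 and 33.6% of all gene and arm pairs were gained and lost by position. With equal numbers of peaks in the lists of an arm (the widest of the longer list), the gains again numbered 4, with Gja1 and Glul in SIT as before and Aqp4 and Gja1 on the left in place of Aldh1l1 and Slc1a3 in SIT. The losses then numbered 3, Fgfr3 in SIT and Aldh1l1 and Slc1a3 on the right. Over all genes, 23.9% of gene and arm pairs were gained and 19.4% lost at equal list length. The gains of Aldh1l1 and Slc1a3 in SIT and all 5 losses on the left were thus not seen at equal list length.

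For H3K27me3, Aldoc was the 1 member gained in the SIT arm, against 41.4% of genes, and 0 were lost, against 1.02%. In the left separate arm 0 were gained and 0 lost, against 18.5 and 9.13%. In the right hippocampus 0 members were gained, against 3.12%, and Gja1 was lost, against 43.6%. Aldh1l1, Aqp4, Fgfr3 and Slc1a3 were shared in every arm. Members in neither list numbered 4 in SIT and 5 in each separate arm. At equal list length Gja1 was again lost on the right, while the Aldoc gain was not seen and Aldh1l1 was gained on the right, where 13.9% of gene and arm pairs over the 3 arms were gained and 15.7% lost. With the widest 50% of each list, 3 of the 14 pairs of member and arm listed were gained and 4 lost, where 24.6 and 19.2% of all gene and arm pairs were. By covered bases, 0 members were higher and 0 lower in exercised mice in all 3 arms, beside 1.20 and 3.30% of 4817 genes. These are genes with H3K27me3 in their window, which Gfap, Slc1a2, Glul and S100b lacked in every list. Scaled to the bases of the whole list, Aldh1l1 was higher and Gja1 lower in all 3 arms, beside 3.30 and 7.72% of genes. Without the right separate arm 4 members were higher and 0 lower in both remaining arms. Aldoc was the only other member with H3K27me3 in its window there. Of 4557 genes with H3K27me3 in their window in these arms, 39.8% were higher and 3.88% lower. The mean difference between exercised and sedentary lists was 877 ± 3150 bases for Aldh1l1, 317 ± 2170 for Aqp4, -385 ± 1110 for Fgfr3 and -1740 ± 4470 for Gja1 (SD over 3 arms), each smaller than the spread between arms. Within 3000 bases of the principal start, the mean difference was -447 bases for Aldh1l1 and 46.3 for Fgfr3, of the opposite sign. The exact sign-flip permutation p was 0.75 for Aldh1l1 and 1 for the other 3.

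**Figure D5:**
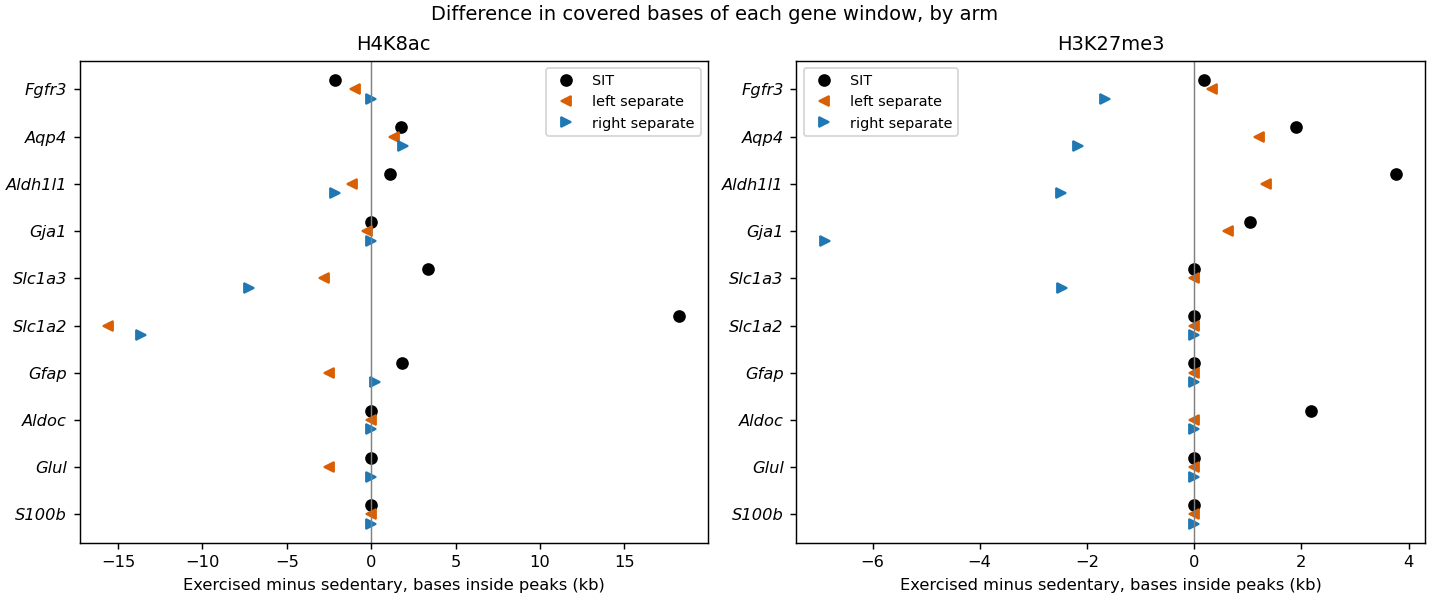
Bases inside peaks in each gene window, exercised minus sedentary, in kb, for H4K8ac (left) and H3K27me3 (right), with 1 point per arm (black circle, SIT; orange, left separate; blue, right separate). Aqp4 H4K8ac is the row with all 3 points above 0 (1341 to 1861 bases), and the points of Slc1a2 run from -15589 to 18258 bases.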

How the data were processed

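Hippocampal nuclei of Emx1-NuTRAP mice were profiled by CUT&RUN-seq for H4K8ac, H3K27me3 or IgG, and the 60 samples formed 18 groups by antibody, condition and arm. Per the labels and the study's methods, the authors checked reads with FastQC 0.11.9, aligned them with Bowtie2 2.4.1, called peaks with SEACR (stringent setting) and annotated them with ChIPseeker 1.8.6 on mm10, taking 3 kb on either side of a start as promoter. They left out 4 exercised H4K8ac libraries, 3 of separate isolations and 1 of SIT. How libraries were pooled is not given in the sources used here.

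The deposited lists hold positions, widths and distances in bases, with an annotation and a gene symbol per peak, and no counts, signal or p-values, so the depth is unknown from the files and count models were not applied. List starts count from 0 (the lowest is 0) and are given here as 1-based. IgG samples are not analysed here.

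Gene spans came from GENCODE M21 (GRCm38), with the principal start taken from the best-ranked, then longest, basic coding transcript. A window was the gene with 3000 bases before it. Covered bases were counted in Python 3.11.15 with numpy 2.4.6 and pandas 2.3.3, and the code was tested on simulated intervals (20 of 20 sets equalled base-by-base counts). Intervals are exact binomial ones (95%, scipy 1.17.1). Exercise was tested per gene by flipping the signs of the 3 arms' differences (exact permutation, two-sided), not adjusted since no p can go below 0.25. Promoter sequences are from RefSeq, which matched 9 of the 10 members. The alternatives tried were the start in a peak, peaks within 1 kb, the widest 50%, equal list lengths, assignment by position, promoter or non-distal peaks alone, other windows, scaling by list and leaving out arms or lists.

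All 10 members are named. From each reference list (neuronal, further astrocyte, radial glia and neural stem, oligodendrocyte, microglia, endothelial, inhibitory neuron), up to 3 genes with promoter peaks in the most lists are named, and genes that received a peak over a member. A reference gene that this rule would name is not reported here. Members and lists were chosen with earlier results of these data known.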

Additional observations from a re-analysis of the deposited data

Results flagged for a closer look

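Exercised minus sedentary covered bases differed in sign between arms for 8 pairs of gene and mark. With 1 pooled list per condition and arm, none of these differences between arms was tested. For H4K8ac, Slc1a2 differed by 18258 bases in the SIT arm, -15589 on the left and -13656 on the right. Slc1a3 differed by 3348, -2793 and -7228 bases in the same order, Aldh1l1 by 1136, -1159 and -2121, and Gfap by 1814, -2472 and 197. For H3K27me3, Aldh1l1 differed by 3765, 1345 and -2478 bases, Aqp4 by 1895, 1216 and -2161, Gja1 by 1042, 633 and -6889, and Fgfr3 by 174, 331 and -1661. For Slc1a2, Slc1a3 and Aldh1l1 H4K8ac and for all 4 genes with H3K27me3, the sign was that of the difference in list length in each arm. Gfap H4K8ac was higher in the exercised right separate list, which was the shorter of its arm.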

How the results depend on the processing

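H3K27me3 promoter peaks stayed within 1.5 times the reported 40.0% of member and list pairs under all 6 alternatives tried (26.7 to 42.0%). The lowest, with the widest 50% of each list, was close to that limit, and all coding genes there went from 10.9 to 7.73%. With the start inside a peak members were at 38.3%, within 1 kb at 40.0% and at equal list length at 35.0%. All coding genes were then at 8.05, 9.33 and 8.58%. With any peak within 3000 bases of the principal start, members were at 40.0%, beside 15139 of 130962 gene and list pairs of all coding genes. H4K8ac promoter peaks fell from 23.3 to 6.67% where the principal start had to lie inside the peak, and to 15.0% with the widest 50% of each list, with equal numbers of peaks in all lists of the mark, and with any peak within 3000 bases of the principal start, where all coding genes went from 19.1 to 10.2, 10.4, 9.95 and 17.6%. The last of these, and the counts without the shortest lists, were chosen after seeing the data. Without the exercised separate lists, members were at 27.5% for H4K8ac, beside 23.0% for all coding genes. Without exercised right, members were at 42.0% for H3K27me3, beside 12652 of 109135 gene and list pairs of all coding genes. For H4K8ac, the 4 gains among 19 listed member and arm pairs, beside 14.2% of all gene and arm pairs, became 1 of 10 with promoter peaks alone (22.6% of all), 2 of 16 with distal intergenic peaks left out (16.6%) and 2 of 13 with the widest 50% (17.0%). With lists of equal length the gains again numbered 4 (23.9%), 2 of them in other gene and arm pairs, while the 7 losses (31.8%) became 3 of 12 (19.4%). For H3K27me3, the 1 loss among 16 pairs (17.8% of all) became 2 of 14 by position (17.8%) or with distal intergenic peaks left out (18.9%), and the widest 50% gave 3 gains and 4 losses of 14 (24.6 and 19.2%). By covered bases, the number of members higher in every arm for H4K8ac was 0 within 3000 bases of the start (the Aqp4 peak lies outside this; 1.74% of genes), and 1 to 2 when an arm was left out, Gfap joining Aqp4 without the left separate arm (9.79%). The number lower was 0 to 3 when an arm was left out: Aldh1l1, Slc1a2 and Slc1a3 without SIT (45.1% of genes), Fgfr3 without the right separate arm (1212 of 11046 genes). For H3K27me3, 0 to 4 were higher when an arm was left out (Aldh1l1, Aqp4, Gja1 and Fgfr3 without the right separate arm). There, 39.8% of 4557 genes with H3K27me3 in their window were higher, and Aldoc was the only other member with it. Scaled to the bases of the whole list, 1 member was higher (Aldh1l1, 3.30% of genes) and 1 lower (Gja1, 7.72%). The cause was not tested. No paired analysis was possible because the lists pool their libraries and carry no replicate numbers, and for the same reason no replicate could be left out. The files give no depth for any list.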
